A study of Mus musculus with 2 samples.

Results

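The genes of transforming growth factor beta (TGF-beta) and bone morphogenetic protein (BMP) signalling were followed in 2 mouse melanoma cell lines, B16/BL6 and B16. The 42 genes comprise ligands, latent binding proteins, receptors, Smads, antagonists and Id genes, and each was found by its exact symbol among the 23284 symbols of the deposited tables. B16/BL6 is an invasive derivative of B16, a melanoma line of the C57BL/6 mouse strain. B16/BL6 cells were grown in RPMI medium and B16 cells in DMEM medium, both with fetal bovine serum, penicillin and streptomycin, so effects of line and medium cannot be told apart. Messenger RNA was sequenced from 1 library of each line to look for genes related to metastasis. No value below therefore has a replicate error, and differences are described without a test. Expression is in FPKM, which counts sequenced fragments relative to transcript length and to the size of the library.

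TGF-beta family ligands are secreted dimers that bring together type I and type II receptor kinases at the cell surface. TGF-beta is released in a latent complex with a latent TGF-beta binding protein and needs activation before it can bind. The receptors phosphorylate Smad2 and Smad3 downstream of TGF-beta and activin, or Smad1 and Smad5 downstream of BMPs, and these join Smad4 and enter the nucleus. Smad6 and Smad7 are inhibitory Smads that are themselves induced by the pathway, and Id1, Id2 and Id3 are classical BMP-induced genes whose products block basic helix-loop-helix transcription factors. In melanocytes TGF-beta restrains growth and pigment synthesis, and melanoma cells often make TGF-beta themselves.

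The labelled cell type was checked first. All 8 melanocyte lineage markers, among them Mitf, Tyr, Pmel and Sox10, were above 1 FPKM in either library, with summed levels of 18860 FPKM in B16/BL6 and 12358 FPKM in B16. Of the markers of other cell types, 0 of 6 for fibroblasts, 0 of 4 for leukocytes, 0 of 4 for endothelial cells and 0 of 4 for epithelial cells reached 1 FPKM. The abundant control Actb was at 1747 FPKM in B16/BL6 and 1789 FPKM in B16. The files record no depth. The smallest FPKM values are multiples of what 1 fragment is worth, from which depth was roughly estimated at 11114927 fragments for B16/BL6 and 10029499 for B16.

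Of the 42 genes, 28 reached 1 FPKM in at least 1 library, 10 were listed at 0 in both and 4 lay in between. Differences are those of log2(FPKM + 1), B16/BL6 minus B16, a scale that understates the change of low genes, and 2-fold on that scale was the limit for calling a gene higher or lower. Of the 10709 genes in the whole table that reached 1 FPKM, 3.31% were higher in B16/BL6 by 2-fold or more and 3.16% were lower by as much. Among the 28 pathway genes, 2 were higher, Tgfb3 and Id2, and 2 were lower, Tgfb1 and Tgfb2. Of these, Tgfb1 and Tgfb2 passed the minimum in B16 alone, and Tgfbr3 passed it in B16/BL6 alone, so their selection and their difference are not independent. The other 24 lay within 2-fold. The median difference of the 28 genes was 0.15, beside 0.01 over all genes. On the TPM scale, where either library sums to 1000000, the median of all genes was -0.16 and that of the pathway genes 0.00. There the whole table had 369 genes higher and 583 lower among 11257 that reached 1 TPM, in place of 354 and 338 among 10709.

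**Figure D1:**
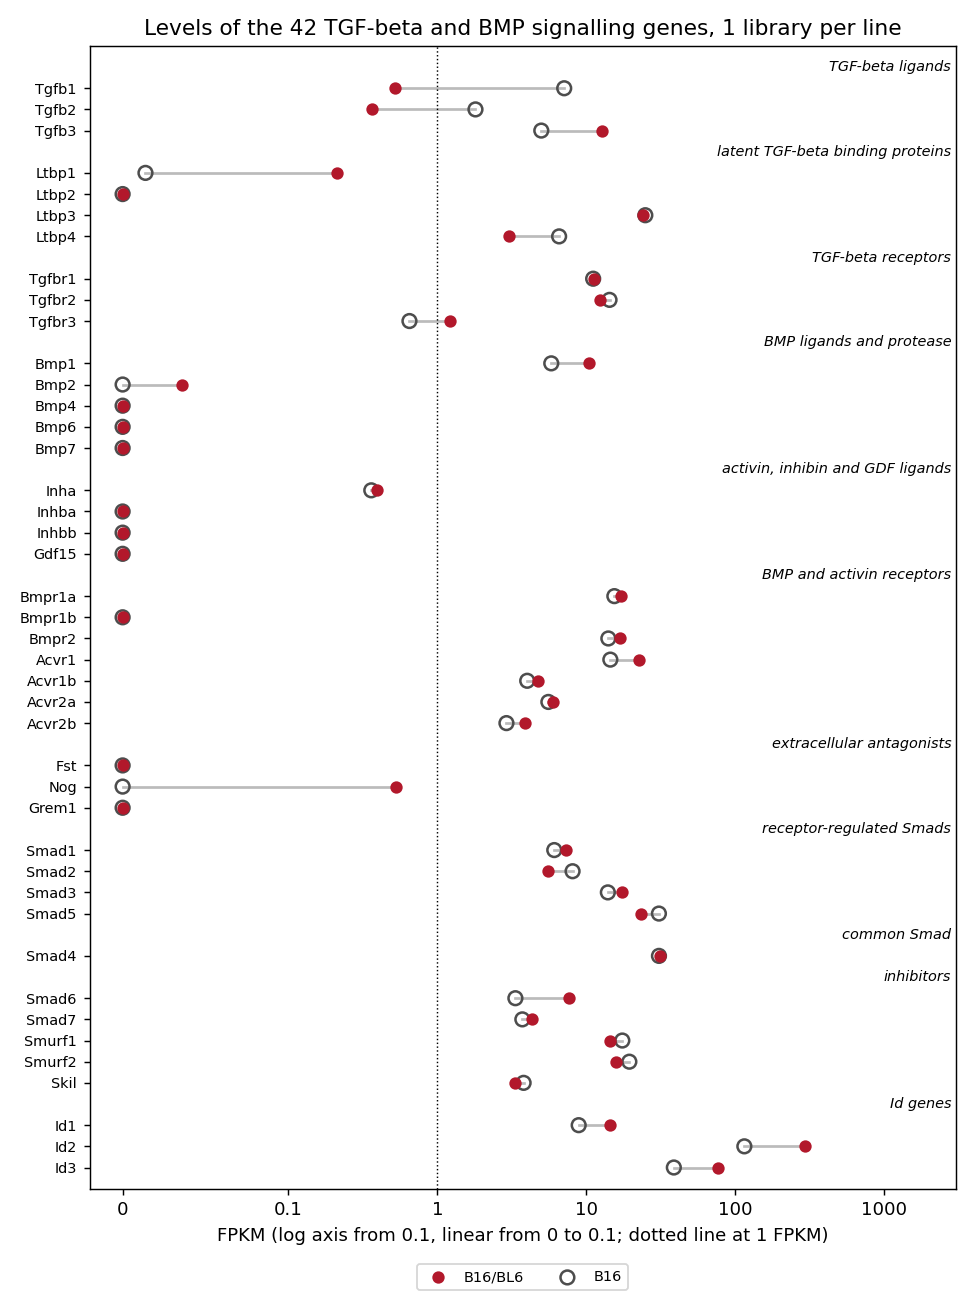
FPKM of each of the 42 genes in B16/BL6 (filled circles) and B16 (open circles), grouped by role, with 1 library per line and a dotted line at 1 FPKM. The widest gaps among genes above 1 FPKM are those of Tgfb1 (0.522 FPKM in B16/BL6 and 7.11 FPKM in B16) and Tgfb2 (0.363 FPKM in B16/BL6 and 1.80 FPKM in B16), and the circles of Tgfbr1, Ltbp3 and Smad4 nearly coincide.

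Upstream sequences are shown for 4 genes toward opposite ends of the list, not chosen by rank alone. They are Tgfb1 and Tgfb2, lower in B16/BL6, and Id2 and Id3, which were toward the higher end. Each is the 250 bases before an annotated transcript start, read 5′ to 3′ on the gene's strand, from RefSeq on GRCm38.p6. The Tgfb1 window is chr7:25686752-25687001 on the plus strand, that of Tgfb2 is chr1:186705990-186706239 on the minus strand, that of Id2 is chr12:25096093-25096342 on the minus strand and that of Id3 is chr4:136143572-136143821 on the plus strand. The Tgfb2 window lies inside the annotated span of its gene, before an internal transcript start, whereas the others adjoin the outer end of theirs. Capitals mark matches, on either strand, to the short Smad box CAGAC (reverse complement GTCTG), the GC-rich Smad element GGCGCC and the E-box CACGTG.
Tgfb1: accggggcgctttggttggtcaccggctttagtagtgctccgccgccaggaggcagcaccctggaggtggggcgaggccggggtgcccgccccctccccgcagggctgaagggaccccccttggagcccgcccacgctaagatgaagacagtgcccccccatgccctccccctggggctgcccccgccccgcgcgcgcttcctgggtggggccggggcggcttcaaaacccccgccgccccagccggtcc
Tgfb2: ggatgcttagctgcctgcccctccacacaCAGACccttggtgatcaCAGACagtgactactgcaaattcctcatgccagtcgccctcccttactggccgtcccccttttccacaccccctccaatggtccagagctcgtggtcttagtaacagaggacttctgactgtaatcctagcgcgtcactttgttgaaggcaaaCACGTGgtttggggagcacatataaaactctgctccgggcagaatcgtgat
Id2: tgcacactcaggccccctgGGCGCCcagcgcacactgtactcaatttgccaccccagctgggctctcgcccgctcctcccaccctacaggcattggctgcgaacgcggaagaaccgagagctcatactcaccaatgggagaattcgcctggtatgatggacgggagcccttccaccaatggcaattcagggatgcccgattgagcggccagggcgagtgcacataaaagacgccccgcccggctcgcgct
Id3: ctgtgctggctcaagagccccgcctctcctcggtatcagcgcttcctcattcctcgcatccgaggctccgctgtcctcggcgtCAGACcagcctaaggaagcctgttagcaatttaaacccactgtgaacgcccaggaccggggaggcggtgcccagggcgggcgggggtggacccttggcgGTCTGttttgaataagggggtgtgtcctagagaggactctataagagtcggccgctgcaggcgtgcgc

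The Tgfb2 window held 2 matches to CAGAC, starting 221 and 204 bases before the transcript start, and 1 E-box 51 bases before it. The Id3 window held 2 matches to the short Smad box, at 167 and 68 bases, and the Id2 window 1 GGCGCC at 231 bases. The Tgfb1 window, at 75.2% G and C against a mean of 53.2% over all windows, held none of the searched letters. Among all 32851 windows of the same length, 42.2% held the short Smad box, 9.59% held GGCGCC and 6.02% held the E-box. A short Smad box is thus common, and the other matches are less so. How many windows held 2 short Smad boxes was not counted. The palindromic Smad-binding element GTCTAGAC (0.167% of all windows), the cAMP response element TGACGTCA (1.55%) and the AP-1 site TGAGTCA (4.46%) were searched as well and had no match in the 4 windows. A match is a string of letters in the reference and not evidence of binding. In all, 30 of the 42 genes had such a window. Tgfb3 had none. The Smad6 window held none of the searched letters and is not shown, although the difference of Smad6 was slightly larger than that of Id3.

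Of the pathway genes past the minimum Tgfb1 differed most, and all 3 TGF-beta ligand genes reached 2-fold. Tgfb1 (chromosome 7, 25687002 to 25705077 in GRCm38), which encodes the most widely made isoform, was at 0.522 FPKM in B16/BL6 and 7.11 FPKM in B16, a log2 difference of -2.41 and a ratio of 0.0735. It ranked 46th from the lowest of the 10709 genes. Tgfb2 (chromosome 1, 186622787 to 186709697), the isoform prominent in neural and eye development, was at 0.363 FPKM in B16/BL6 and 1.80 FPKM in B16, a difference of -1.04. Tgfb3 (chromosome 12, 86056743 to 86079041), known for its part in palate closure, was the opposite, at 12.8 FPKM in B16/BL6 and 4.99 FPKM in B16, a difference of 1.20 and a ratio of 2.56. The 3 ligand genes together were therefore nearly level, at 13.7 FPKM in B16/BL6 and 13.9 FPKM in B16, or 24.3 in B16/BL6 and 27.8 in B16 on the TPM scale, while their make-up differed. Tgfb3 held 93.5% of the ligand sum in B16/BL6 and 35.9% in B16, whereas Tgfb1 held 3.82% in B16/BL6 and 51.1% in B16. Tgfb2 held 2.66% in B16/BL6 and 12.98% in B16. In RNA from whole cultures, fewer expressing cells and less RNA per cell cannot be told apart.

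**Figure D2:**
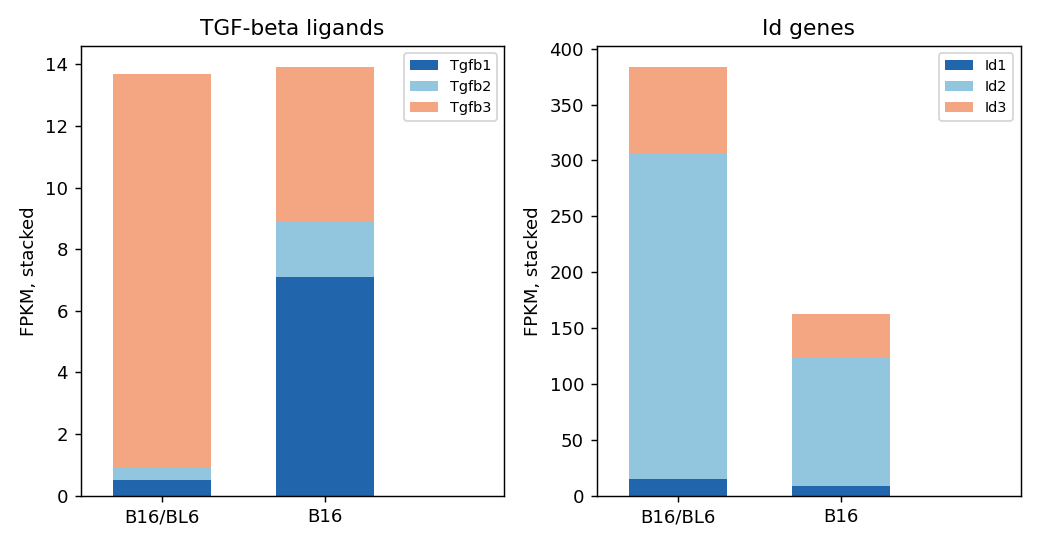
Stacked FPKM of Tgfb1, Tgfb2 and Tgfb3 (left) and of Id1, Id2 and Id3 (right) in B16/BL6 and B16, 1 library each. The ligand stacks are of nearly equal height (13.7 FPKM in B16/BL6 and 13.9 FPKM in B16) but of different composition, whereas the Id stack is 383 FPKM in B16/BL6 and 162 FPKM in B16 with Id2 the main layer in either.

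The number of fragments behind these ligand values was estimated from the depths and the longest annotated transcript. It was about 13 in B16/BL6 and 160 in B16 for Tgfb1, about 21 in B16/BL6 and 93 in B16 for Tgfb2, and about 480 in B16/BL6 and 170 in B16 for Tgfb3. The Tgfb1 value in B16/BL6 thus rests on few fragments. Exons of Tgfb1 overlap no other annotated gene, whereas Tgfb2 shares 124 exon bases with an opposite-strand gene and Tgfb3 shares 163 and 257 bases with a pair of them. The library kit keeps the strand, but whether the authors' counting used it is not stated. The call of Tgfb1 held under each of the 7 alternatives tried, from -3.53 to -1.13. That of Tgfb2 was lost with a pseudocount of 5 (-0.34) and after subtracting the median of its chromosome (-0.98), and Tgfb2 did not pass a minimum of 5 FPKM. That of Tgfb3 was lost with a pseudocount of 5 (0.83). Among all genes past the minimum and averaging under 5 FPKM, the lowest 5% began at a difference of -1.20. Tgfb1 lay beyond that point, whereas Tgfb2, at -1.04, did not reach it.

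Latent TGF-beta binding proteins, which tether latent TGF-beta to the matrix, were dominated by Ltbp3 in either line. Ltbp3 was at 24.2 FPKM in B16/BL6 and 24.9 FPKM in B16. Ltbp4 was at 3.05 FPKM in B16/BL6 and 6.57 FPKM in B16, a difference of -0.90 that passed 2-fold on the TPM scale (-1.14) and with a pseudocount of 0.1 (-1.08). Ltbp1 stayed under 1 FPKM, at 0.214 FPKM in B16/BL6 and 0.0138 FPKM in B16, the B16 value being worth about 1 fragment. Ltbp2 was listed at 0 in both.

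Of the TGF-beta receptors, Tgfbr1, the type I receptor, was at 11.3 FPKM in B16/BL6 and 11.1 FPKM in B16, and Tgfbr2, the type II receptor, at 12.3 FPKM in B16/BL6 and 14.3 FPKM in B16. The co-receptor gene Tgfbr3, which encodes betaglycan, was at 1.22 FPKM in B16/BL6 and 0.651 FPKM in B16, a ratio of 1.88 and a difference of 0.43, or 0.82 with a pseudocount of 0.1. The difference of Tgfbr1, 0.02, turned to -0.14 on the TPM scale, so no direction is given for it.

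Transcripts of BMP and activin ligands were scarce. Bmp4, Bmp6 and Bmp7, which encode BMP ligands, the activin subunit genes Inhba and Inhbb, and the stress-induced ligand gene Gdf15 were listed at 0 in both libraries. Bmp2 was at 0.0356 FPKM in B16/BL6 and listed at 0 in B16, and the inhibin subunit gene Inha was at 0.392 FPKM in B16/BL6 and 0.361 FPKM in B16. A listed 0 may also come from an estimate that failed, and 224 exon bases of Bmp6 lie opposite Txndc5, which was at 144 FPKM in B16/BL6 and 180 FPKM in B16. Bmp1 was the exception by name only, since it encodes a metalloprotease that cleaves procollagens and BMP antagonists. It was at 10.4 FPKM in B16/BL6 and 5.82 FPKM in B16, a difference of 0.74. The secreted antagonist genes Fst and Grem1, which encode follistatin and gremlin, were also listed at 0 in both, and Nog, which encodes noggin, was at 0.527 FPKM in B16/BL6 and listed at 0 in B16. By the depth estimate the B16/BL6 value of Nog was worth about 9.9 fragments.

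The receptors for these ligands were nevertheless present in either line. Of the 7 BMP and activin receptor genes, Bmpr1b was listed at 0 in both and the other 6 passed the minimum, all within 2-fold and all above 0. On the TPM scale 4 of the 6 stayed above 0, while Bmpr1a and Acvr2a were just below it. Acvr1, a type I receptor for BMPs, differed most among them, at 22.7 FPKM in B16/BL6 and 14.5 FPKM in B16, a difference of 0.61. Bmpr1a, another type I receptor, was at 17.0 FPKM in B16/BL6 and 15.4 FPKM in B16, and Bmpr2, the BMP type II receptor, at 16.9 FPKM in B16/BL6 and 14.1 FPKM in B16. The activin receptors were lower in level in either line. Acvr1b, of type I, was at 4.76 FPKM in B16/BL6 and 4.01 FPKM in B16. The type II receptor Acvr2b was at 3.90 FPKM in B16/BL6 and 2.91 FPKM in B16, and Acvr2a at 5.93 FPKM in B16/BL6 and 5.57 FPKM in B16. Acvr2a shares 446 of its 5686 exon bases with the opposite-strand gene Orc4, which was at 14.2 FPKM in B16/BL6 and 15.5 FPKM in B16.

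The signal-transducing Smads were all expressed and all within 2-fold. Smad3, a carrier of TGF-beta and activin signals, was at 17.4 FPKM in B16/BL6 and 13.95 FPKM in B16, and its partner Smad2 was the lower of the pair, at 5.49 FPKM in B16/BL6 and 8.09 FPKM in B16. Of the BMP-activated Smads, Smad1 was at 7.32 FPKM in B16/BL6 and 6.10 FPKM in B16, and Smad5 at 23.4 FPKM in B16/BL6 and 30.7 FPKM in B16. The differences were 0.30 for Smad3, -0.48 for Smad2, 0.23 for Smad1 and -0.38 for Smad5. Smad2 lies on chromosome 18 and Smad5 on chromosome 13, whose expressed genes had medians of -0.29 and -0.32, the lowest of any chromosome. With each chromosome centred, the differences were -0.19 for Smad2 and -0.05 for Smad5. Smad4, the common partner, was at 31.0 FPKM in B16/BL6 and 30.7 FPKM in B16. It also lies on chromosome 18, and its difference of 0.01 became 0.31 with each chromosome centred.

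Among the intracellular inhibitors Smad6 stood apart from Smad7. Smad6 (chromosome 9, 63953076 to 64022085), which mainly restrains BMP signalling, was at 7.60 FPKM in B16/BL6 and 3.34 FPKM in B16, a ratio of 2.27. Its log2 difference of 0.99 lay just under 2-fold with the pseudocount of 1, and passed it with a pseudocount of 0.1 (1.16) and with each chromosome centred (1.05). Smad7, which restrains either branch, was at 4.30 FPKM in B16/BL6 and 3.72 FPKM in B16, a difference of 0.17. It lies on chromosome 18, and its difference was 0.46 with each chromosome centred. Smurf1 and Smurf2, ubiquitin ligases for Smads and receptors, were slightly lower, at 14.4 and 15.7 FPKM in B16/BL6 and at 17.4 and 19.4 FPKM in B16. Skil, a TGF-beta-induced repressor of Smad complexes, was at 3.32 FPKM in B16/BL6 and 3.80 FPKM in B16.

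**Figure D3:**
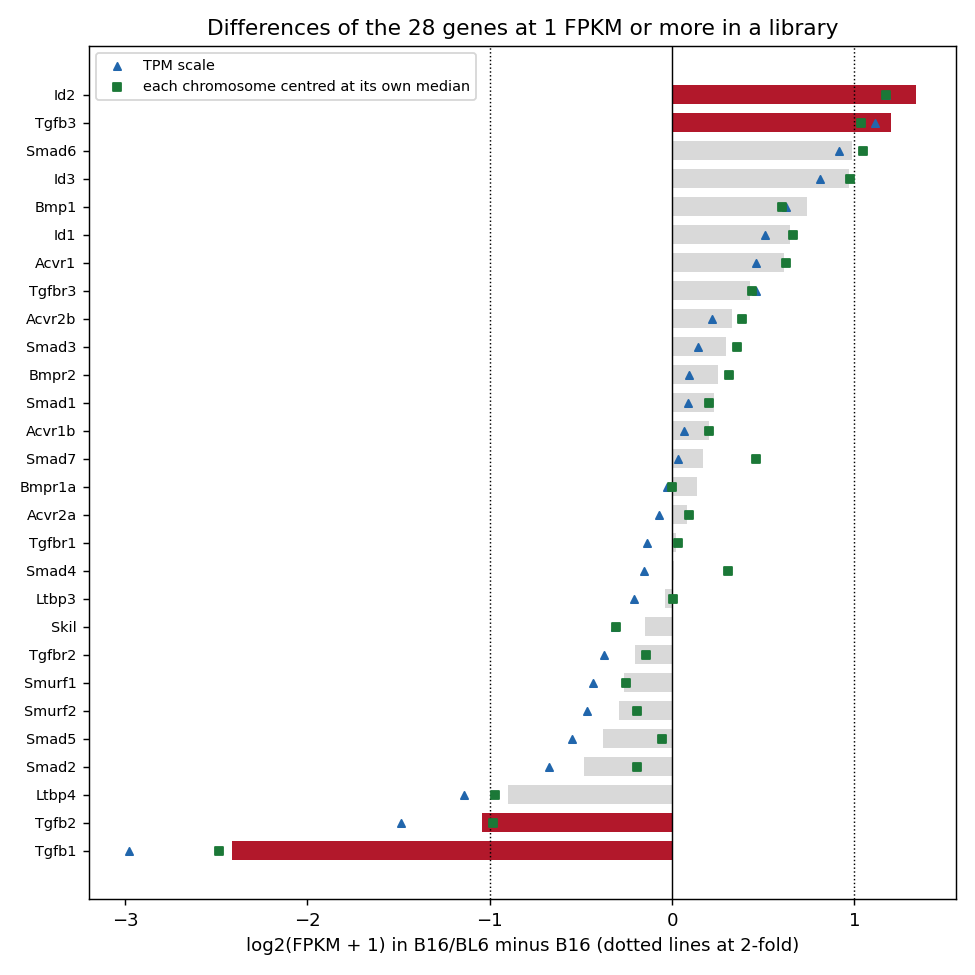
Difference in log2(FPKM + 1), B16/BL6 minus B16, for the 28 genes at 1 FPKM or more in a library, with red bars at 2-fold or more, triangles for the TPM scale and squares for values with each chromosome centred. Id2 and Tgfb3 lie at the top and Tgfb1 and Tgfb2 at the bottom, and the squares bring Tgfb2 to -0.98 and Smad6 to 1.05.

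The Id genes were all higher in B16/BL6, 1 of the 3 by 2-fold or more. Id2 (chromosome 12, 25093799 to 25096092) was the most abundant of the 42 genes in either line, at 292 FPKM in B16/BL6 and 115 FPKM in B16, a difference of 1.34. Id3 (chromosome 4, 136143822 to 136145392) was at 76.8 FPKM in B16/BL6 and 38.7 FPKM in B16, a difference of 0.97, just under 2-fold. Id1 (chromosome 2, 152736251 to 152737410) was at 14.5 FPKM in B16/BL6 and 8.89 FPKM in B16, a difference of 0.65. All 3 kept a positive difference under each alternative, with lowest values of 1.17 for Id2, 0.81 for Id3 and 0.49 for Id1. Their sum was 383 FPKM in B16/BL6 and 162 FPKM in B16, and the mix was similar, with Id2 at 76.2% of the sum in B16/BL6 and 70.7% in B16. Among all genes averaging 100 FPKM or more, the highest 5% began at a difference of 0.85, and among those of 20 to 100 FPKM at 0.72, so Id2 and Id3 lay beyond these points. Among genes of 5 to 20 FPKM it began at 0.71, which Id1 did not reach.

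**Figure D4:**
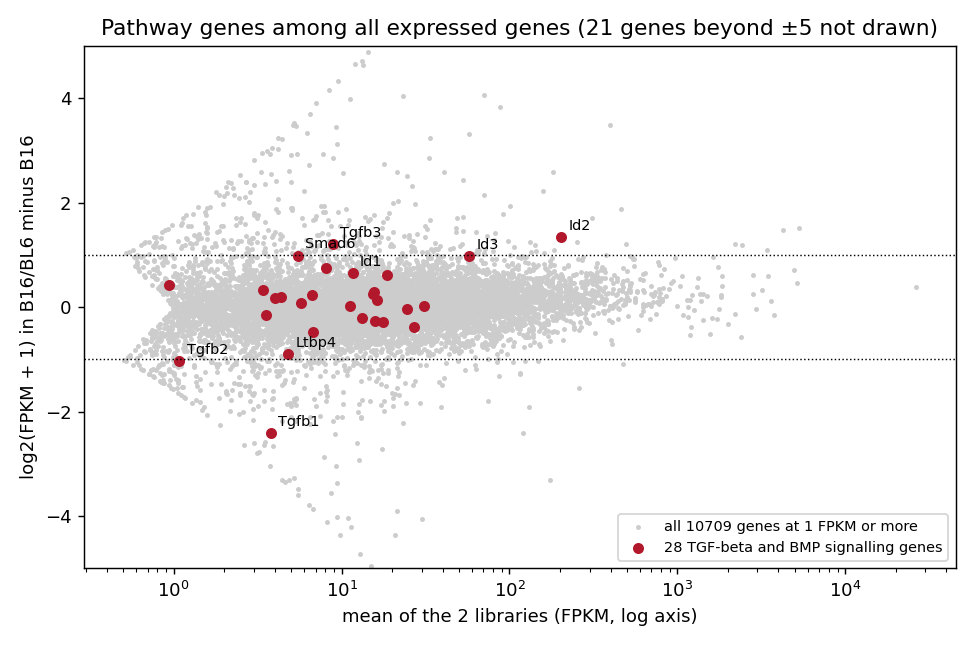
Difference in log2(FPKM + 1), B16/BL6 minus B16, against the mean FPKM of both libraries for the 10709 genes at 1 FPKM or more (grey) and the 28 pathway genes (red), with 21 genes beyond 5 on the log2 scale not drawn. Tgfb1, at -2.41, lies well below the main cloud, and Id2 and Id3 lie at its upper edge at higher levels.

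Some chromosomes differed as a whole between the lines, so the genes around each of these were examined. Id2 and Tgfb3 are both on chromosome 12, where the median of 386 expressed genes was 0.17, and centring the chromosome left 1.17 for Id2 and 1.04 for Tgfb3. The 10 nearest expressed genes around Id2 had a median of 0.41 with 2 at least 2-fold higher, and those around Tgfb3 a median of 0.33, also with 2 higher. Around Tgfb1 the 10 neighbours had a median of 0.10, ranged from -0.09 to 0.99 and held 0 at 2-fold in either direction. The neighbours of Id3 (median -0.16), Id1 (-0.12) and Tgfb2 (-0.27) were below 0, and those of Smad6 were at 0.07. On the FPKM scale, the differences of Tgfb1, Id1 and Id3 were opposite in sign to the medians of their neighbours. That of Smad6 lay far above its own. The neighbours of Id2, Tgfb3 and Tgfb2 were on the same side of 0 as the gene itself. The sign of a median this near 0 depends on the scaling, since the median of all genes was -0.16 on the TPM scale. Neighbour medians were not taken on that scale, and a regional cause was not tested.

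Other genes of these pathways were taken from 8 lists with 163 symbols, of which 161 were found. Of these 161 genes, 83 passed the minimum, 10 being higher in B16/BL6 by 2-fold or more and 2 lower, beside the 3.31% and 3.16% of all genes. The minimum was passed in B16/BL6 alone by 7 of the 83 and in B16 alone by 2. Of the 10 higher genes, 6 (Col1a2, Fstl4, Gata2, Htra3, Spp1 and Zfp423) passed it through B16/BL6 alone, and of the 2 lower ones Adam12 passed it through B16 alone. Their selection and their difference are not independent, so nothing is read from the count of 10. Nor is anything read from the counts by list that follow, which stand beside the same shares of all genes.

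Among 22 further ligand genes, Gdf11 and Gdf1 alone passed the minimum. Gdf11 was at 8.55 FPKM in B16/BL6 and 8.81 FPKM in B16. Gdf1, which shares a transcript with the ceramide synthase gene Cers1 and is uncertain for that reason, was at 0.256 FPKM in B16/BL6 and 1.27 FPKM in B16. Of 11 further receptors and co-receptors, 7 passed, with 2 higher and 0 lower. These were Rgma, a BMP co-receptor gene (18.9 FPKM in B16/BL6 and 6.70 FPKM in B16), and Vasn, which encodes the TGF-beta-binding protein vasorin (4.35 FPKM in B16/BL6 and 1.25 FPKM in B16). Eng, the gene of the co-receptor endoglin, was abundant in either line at 167 FPKM in B16/BL6 and 126 FPKM in B16, and Acvrl1, the type I receptor gene best known from endothelium, was at 11.9 FPKM in B16/BL6 and 16.9 FPKM in B16. Of the 4 endothelial markers, Cdh5, Kdr and Tek were listed at 0 in both libraries. Pecam1 was listed at 0 in B16/BL6 and was at 0.0298 FPKM in B16.

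Of 19 further extracellular antagonists, 6 passed, with 2 higher and 0 lower. Fstl4, of the follistatin-like family, was at 7.17 FPKM in B16/BL6 and 0.0311 FPKM in B16, a difference of 2.99, and Htra3, a secreted protease that binds TGF-beta family ligands, was at 1.48 FPKM in B16/BL6 and 0.0715 FPKM in B16. Twsg1, a modulator of BMP binding, was at 26.7 FPKM in B16/BL6 and 25.4 FPKM in B16. Of 16 genes of latent TGF-beta activation, 8 passed and 1 was higher. It was Emilin1, a matrix glycoprotein gene whose product restrains processing of the TGF-beta precursor, at 30.0 FPKM in B16/BL6 and 10.4 FPKM in B16. The protease gene Furin, which cleaves that precursor, was at 20.3 FPKM in B16/BL6 and 24.8 FPKM in B16, and the activating integrin gene Itgav at 26.3 FPKM in B16/BL6 and 33.3 FPKM in B16.

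All 27 further intracellular regulators passed the minimum, with 0 higher and 1 lower. The lower gene was Nedd4l, a ubiquitin ligase gene whose product removes activated Smad2 and Smad3, at 9.91 FPKM in B16/BL6 and 34.1 FPKM in B16, a difference of -1.68. Its 10 nearest expressed neighbours on chromosome 18 had a median of -0.33. Smad9, a further BMP-activated Smad gene, was at 3.85 FPKM in B16/BL6 and 1.79 FPKM in B16, a difference of 0.80. Among 19 nuclear partners of Smads, 15 passed and 1 was higher, Zfp423, a zinc finger partner of BMP-activated Smads, at 3.07 FPKM in B16/BL6 and 0.0964 FPKM in B16.

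Of 21 further BMP response genes, 8 passed the minimum, with 3 higher and 0 lower, beside 3.31% and 3.16% of all genes. The median of the 8 was -0.08. The higher ones were the transcription factor genes Atoh8 (13.1 FPKM in B16/BL6 and 2.70 FPKM in B16, a difference of 1.93) and Gata2 (5.35 FPKM in B16/BL6 and 0.955 FPKM in B16, a difference of 1.70), and the osteopontin gene Spp1 (3.18 FPKM in B16/BL6 and 0.523 FPKM in B16). Gata2 and Spp1 passed the minimum in B16/BL6 alone. Atoh8 and Gata2 lie on chromosome 6, where the median was 0.18. Bambi, a BMP-induced decoy receptor gene, was at 4.45 FPKM in B16/BL6 and 6.09 FPKM in B16, and Hes1 at 5.08 FPKM in B16/BL6 and 7.36 FPKM in B16. The fourth Id gene, Id4, was listed at 0 in both.

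Of 33 TGF-beta response genes, 15 passed the minimum, with 1 higher, 1 lower and a median of 0.04. Col1a2, a fibrillar collagen gene, was at 5.32 FPKM in B16/BL6 and 0.367 FPKM in B16, and Adam12, a metalloprotease gene, at 0.967 FPKM in B16/BL6 and 7.93 FPKM in B16, a difference of -2.18. Pmepa1 and Ctgf, commonly used readouts of TGF-beta signalling, were within 2-fold, at 8.05 and 6.70 FPKM in B16/BL6 and at 9.36 and 10.2 FPKM in B16. With a pseudocount of 5, Gata2, Spp1, Col1a2, Vasn, Htra3 and Zfp423 were under 2-fold, which left 4 of the 10 higher genes (Atoh8, Emilin1, Fstl4 and Rgma), and a minimum of 5 FPKM left 6.

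**Figure D5:**
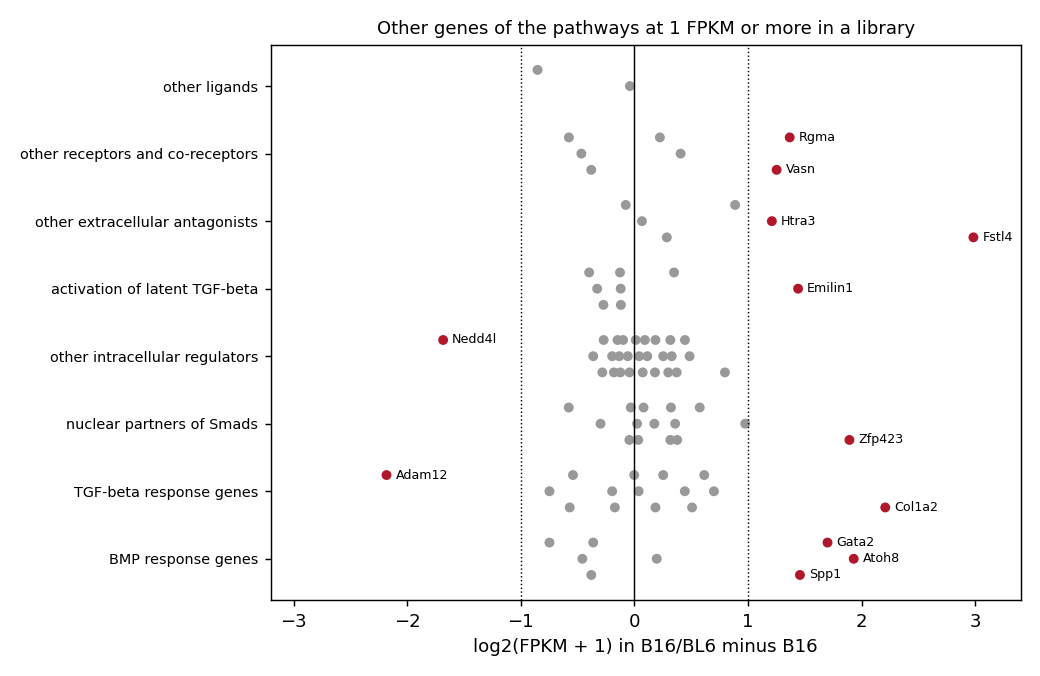
Difference in log2(FPKM + 1), B16/BL6 minus B16, of the 83 other pathway genes at 1 FPKM or more in a library, by list, with genes at 2-fold or more in red and named. Of the 27 intracellular regulators Nedd4l, at -1.68, is the only one at 2-fold, and the BMP response list holds 3 genes above 2-fold with the other 5 within it.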

How the data were processed

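The deposited values are FPKM per gene symbol, per the file headers, 1 library for each line. Per the submitters' processing notes, the build was mm10 and the tools included Cufflinks 2.2.1, TopHat2 2.0.13, SAMtools 0.1.19 and Bowtie2 2.2.3, with no order or settings. Neither the annotation nor the strand setting of the counting is stated there, and read counts were not used here.

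No count model was used, as FPKM values are not counts, and 1 library per line allows no test. Differences were taken on log2(FPKM + 1) for genes that reached 1 FPKM in either library, with Python 3.11.15 and pandas 2.3.3. Only the arithmetic was checked, on simulated data without noise. Relative depth came from 379 genes under 0.1 FPKM in both libraries, of which 155 shared a ratio of 0.906 within 0.5%. Absolute depths are medians over genes under 0.2 FPKM with 1 transcript longer than 1500 bases (75 genes for B16/BL6 and 80 for B16), taking estimates from 8000000 to 14000000 fragments, a range set after the data were seen. Fragment numbers are therefore approximate.

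Positions are from RefSeq GRCm38.p6, and transcript lengths and exon overlaps from GENCODE M21. All 42 genes are named. Of the other pathway genes those at 2-fold are all named, with some of the rest by role. The genes and lists were chosen with earlier results of these data known. Of the listed symbols not found, Ccn2 and Zfhx1b are other names of Ctgf and Zeb2, which were found.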

Additional observations from a re-analysis of the deposited data

How the results depend on the processing

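There were 7 alternatives. The TPM scale moved the median difference of the pathway genes from 0.15 to 0.0038. It also moved the median of all genes, from 0.0053 to -0.16. A pseudocount of 5 left 1 of the 42 genes higher (Id2) and 1 lower (Tgfb1). A minimum of 5 FPKM left 1 lower, since Tgfb2 did not pass it, and centring each chromosome at its own median left 1 lower and 3 higher (Smad6 added). The cause was not tested beyond the construction of each setting. For all genes the pseudocount of 5 gave 151 higher and 118 lower, and the pseudocount of 0.1 gave 492 and 511. Under the 5 alternatives that can move the value of a single gene, 187 of 200 values kept their side of 2-fold, 13 crossed it and 0 changed sign after being at 2-fold. A minimum of 5 FPKM dropped 5 genes that were at 2-fold: Htra3, Spp1, Tgfb2, Vasn and Zfp423. No paired analysis was possible because each line has 1 library. Depth limits the low values most: a gene listed at 0 is not shown to be silent.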

Other observations

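Id proteins act by binding E proteins, the ubiquitous basic helix-loop-helix factors, so the 3 E protein genes were looked up after the values of the Id genes had been seen. Tcf3 was at 52.0 FPKM in B16/BL6 and 28.2 FPKM in B16, a log2 difference of 0.86. Tcf12 was at 57.7 FPKM in B16/BL6 and 74.97 FPKM in B16, a difference of -0.37, and Tcf4 at 6.99 FPKM in B16/BL6 and 7.06 FPKM in B16. All 3 lay within 2-fold, and their sum was 117 FPKM in B16/BL6 and 110 FPKM in B16, beside an Id sum of 383 FPKM in B16/BL6 and 162 FPKM in B16. The E protein differences were not centred by chromosome.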
